A study of Glycine max with 4 samples.

Results

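The clusters described here are the strongest capped RNA starts in soybean root and shoot that the deposited cluster lists reduce to 1 base. A tag cluster is a group of neighbouring transcription start positions on 1 strand, and a member was taken when its list gave it 1 start position and a score of 5 TPM or more. The rule found 398 such clusters among the 17081 of the shoot list and 478 among the 19249 of the root list. A position in both lists was counted once, which left 734 members: 256 chosen in the shoot list alone, 142 in both lists and 336 in the root list alone. They lay among 11620 start regions that reached 5 TPM in either tissue once overlapping shoot and root clusters had been joined. Members were thus chosen by their measured level and number of positions in each tissue, and the levels below are a description.

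Starts were mapped by nanoCAGE, which copies capped RNA and sequences its 5′ end, so that each tag marks the base where a transcript is taken to begin. Both tissues came from Williams 82, the cultivar of the soybean reference genome, grown for 2 weeks in days of 12 h light and 12 h dark, with white light at 300 µmol m-2 s-1. Shoots and roots were collected separately and gave 2 libraries each, made from 1 µg of total RNA. The labels number the libraries 1 and 2 and do not say that they came from separate plants, so the spread between them may be technical. In bulk tissue, fewer cells that use a start and less RNA per cell from it cannot be told apart.

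In plants and animals RNA polymerase II begins transcription at some promoters within a few bases and at others over a wide stretch. Focused promoters are known for a frequent TATA box, which fixes the start at a set distance downstream, and many genes of strong, regulated expression have them. Single-base stacks of tags are also known from other sources, such as cleaved and capped RNA, small capped RNAs and repeated copies of a single molecule. Positions are given by sequence number, strand and base as in the deposited files, counted from 1, and no gene name is attached to them.

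The count table covered sequences 1 to 12 and part of sequence 13, with 901261 and 655935 tags in the shoot libraries and 1000476 and 874004 in the root libraries. It held 494 of the 734 members, and the other 240 have only a pooled value per tissue. TPM here means the deposited scaled value of the 2 pooled libraries, in which 1 tag was worth 0.329 TPM in shoot and 0.286 TPM in root. Taken back to tags, the members of the shoot list had at least 16 pooled shoot tags and those of the root list at least 18 pooled root tags. All intervals and floors reflect counting error alone, since the labels and headers name no molecular identifiers and PCR copies of a molecule are not independent.

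Single-base clusters were found mainly near the threshold. Of all clusters of 5 TPM or more, 4.66% in the shoot list (95% Wilson interval 4.24 to 5.13) and 5.17% in the root list (4.74 to 5.65) had 1 position. In the band from 5 to 10 TPM the share was 11.5% in shoot and 12.3% in root. It was 3.33% in shoot and 4.34% in root from 10 to 20 TPM, and 1.16% in shoot and 1.39% in root from 20 to 50 TPM. From 50 to 100 TPM there was none among 905 shoot clusters, which allows a share of up to 0.331%, and there were 2 among 950 root clusters. At 100 TPM or more the shoot list held 4 of 1009 and the root list 1 of 1087. By the way clusters are built, a further base was listed only when it reached 1 TPM in either tissue. A nearby base with a given share of the tags reaches this more readily in a stronger cluster. The fall with level is therefore partly built in, and these shares describe the lists at this depth and cutoff. In all, the members chosen in each tissue held 0.623% of the shoot TPM and 0.617% of the root TPM.

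**Figure D1:**
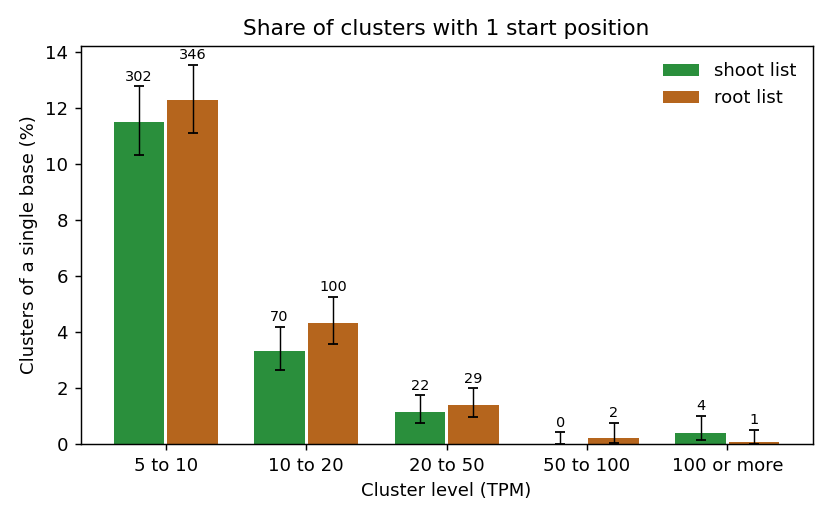
Share of clusters with 1 start position (y axis, percent) by cluster level in TPM (x axis), for the shoot list and the root list, with 95% Wilson intervals as bars and the number of single-base clusters above each. The share is 11.5% in shoot and 12.3% in root at 5 to 10 TPM and below 1% in both lists from 50 TPM.

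The threshold fell inside a crowded range. In the shoot list 33 single-base clusters had 16 tags (5.18 TPM) and were members, and 50 had 15 tags (4.86 TPM) and were not. In the root list 47 had 18 tags (5.16 TPM) and were members, and 64 had 17 tags (4.87 TPM) and were not. The median member had 17 pooled shoot tags and 21 pooled root tags.

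Most members had tags in both tissues at the same base. Of the 734, 620 had at least 1 tag in each tissue, 67 had no root tag and 47 no shoot tag. Among the 10886 other regions of 5 TPM or more, taken as whole regions, 9305 had a level above 0 in both tissues. Use in both tissues was thus common in both sets, though members were counted at 1 base and other regions as wholes. A count of 0 over the 2 libraries of a tissue allows up to 3 tags, which is 0.981 TPM in shoot and 0.859 TPM in root. Among members of the shoot list, the root list gave the base as a single-base cluster of 5 TPM or more in 142 cases and as a weaker single-base cluster in 119. In 29 cases the base lay in a wider root cluster, in 41 it had root tags but no listed cluster, and in 67 it had no root tag. Among members of the root list, the shoot list gave a single-base cluster of 5 TPM or more in the same 142 cases, a weaker single-base cluster in 188 and a wider cluster in 9. It listed no cluster in the remaining cases, of which 92 had shoot tags and 47 had none.

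**Figure D2:**
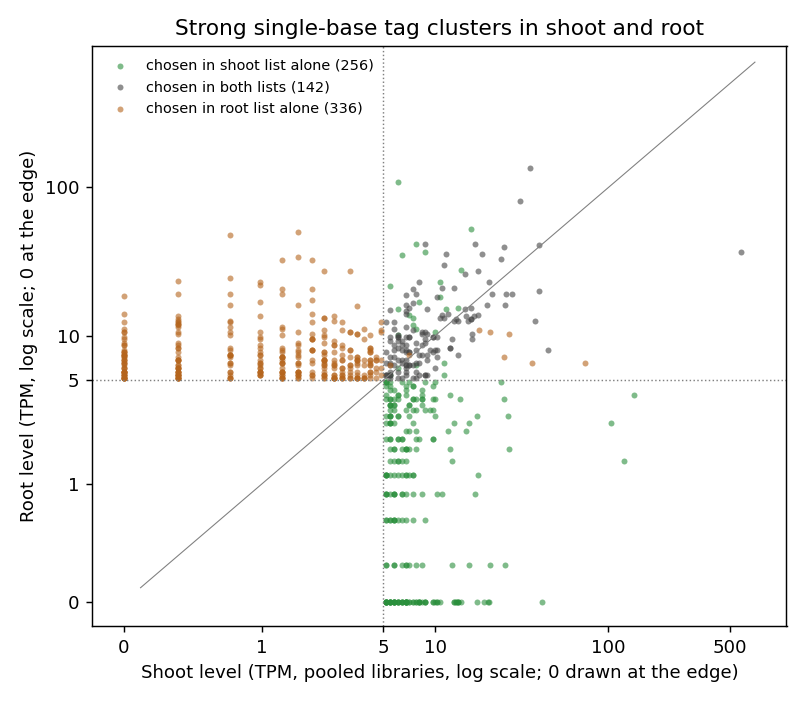
Shoot level (x axis) against root level (y axis) of the 734 members in TPM on log scales, with a level of 0 drawn at the edge, colours for the list that chose each member, dotted lines at 5 TPM and a line of equal levels. Of the members chosen in both lists, 121 of 142 lie within 2-fold of the line of equal levels and 2 are at least 5-fold higher in shoot. The point farthest from the line among them is at 583 TPM in shoot and 36.8 TPM in root.

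The strongest member of all was a shoot start. On sequence 5, minus strand, base 19145575, the shoot libraries held 688 and 1161 tags and the root libraries 69 and 59. Both shoot libraries were far above both root libraries, and the pooled levels were 583 TPM in shoot and 36.8 TPM in root, a ratio of 15.8. It was a single-base cluster in both lists. The next member by shoot level, on sequence 8 minus strand at 18828116, held 190 and 250 tags in shoot against 9 and 5 in root, or 140 against 4.01 TPM. On sequence 13 plus strand, base 763909 held 175 and 151 tags in shoot against 5 and 4 in root, or 104 against 2.58 TPM. All 3 bases had every shoot library above every root library.

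On sequence 19 minus strand, base 37187326, outside the count table, had 122 TPM in shoot and 1.43 TPM in root, from 385 and 5 pooled tags. These 4 were the only members of 100 TPM or more in shoot. Below them the shoot levels dropped to 73.7 TPM at base 43091622 of sequence 9, plus strand, and from there to 45.1 TPM on sequence 19 minus strand at 53677694. The sequence 9 base was chosen in the root list, with 119 and 112 tags in shoot against 12 and 11 in root, because its shoot cluster had more than 1 position.

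The strongest member in root was shared with shoot. On sequence 7, plus strand, base 44232908, the libraries held 73 and 37 tags in shoot and 275 and 197 in root, or 35.2 TPM in shoot and 136 TPM in root. The libraries of the tissues did not overlap there. The second, on sequence 13 plus strand at 36667665, held 17 and 2 shoot tags against 154 and 227 root tags, or 6.15 against 110 TPM. It was chosen in the shoot list, where it stood alone, whereas root had a wider cluster around the same base. The third, on sequence 13 plus strand at 40277741, held 38 and 58 tags in shoot and 184 and 99 in root, or 30.8 and 81.4 TPM.

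Members chosen in root alone reached 50.3 TPM in root. The first of them, on sequence 6 minus strand at 7248672, held 3 and 2 shoot tags against 101 and 74 root tags, or 1.63 against 50.3 TPM. On sequence 11 minus strand, base 20526667 held 1 tag in each shoot library against 93 and 72 in root, or 0.655 against 47.4 TPM. This was the highest ratio of root to shoot among members with tags in both tissues, 72.4, with an exact 95% counting interval of 19.7 to 603. The highest ratio of shoot to root, at base 58529411 of sequence 1, plus strand, was 88.7 with an interval of 15.5 to 3546. It came from 41 and 38 shoot tags against 1 and 0 root tags.

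Members chosen in both lists had medians of 8.07 TPM in shoot and 9.47 TPM in root, near the minimum of 5 TPM. Of the 142, 121 (85.2%) lay within 2-fold between the tissues, 59 were higher in shoot and 83 higher in root, and the median ratio of shoot to root was 0.951. Their log2 TPM values in shoot and root correlated at r = 0.615 (Spearman's rho 0.587, n = 142 positions). The positions share their libraries, and both levels had to reach 5 TPM. The share within 2-fold and the correlation are thus partly fixed by the rule and only describe the set. Over all 734 members 32.0% lay within 2-fold, beside 38.8% of the 10886 other regions of 5 TPM or more. Members were measured at 1 base and other regions as whole regions, so these shares rest on unlike measures. A member chosen in a single list by a level above a minimum is likely to be lower in the other tissue, so the split between the lists is not read as tissue preference. Base 38239854 of sequence 7, plus strand, was strong and close to even in pooled TPM, with 60 and 65 tags in shoot and 71 and 72 in root, or 40.0 and 41.1 TPM.

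The difference between the tissues was fitted over all start positions of the count table with edgeR's quasi-likelihood test, and calls were made at a Benjamini-Hochberg adjusted p below 0.05. Of 479104 positions 11966 passed the filter on low counts, and of the 494 members with counts 271 passed it. The other 223 had too few tags for the filter, and a member that passed through a single tissue had to differ. Over all positions tested 56.8% were called, 33.5% higher in shoot and 23.2% higher in root. Of the 271 members tested 139 were called, 78 higher in shoot and 61 higher in root. The median log2 difference of shoot over root was 0.25 over the members tested and 0.15 over all positions tested. Because the rule used the pooled level of each tissue, nothing is read from these counts.

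The split of calls depended on the scaling. With libraries scaled to total tags instead of the trimmed mean of M values, 68 members were called higher in shoot and 79 higher in root, beside 29.2% and 31.8% of all positions tested, and the median log2 difference over all positions moved to -0.28. All log2 differences below are relative to the scaling by the trimmed mean of M values, and on the other they shift by the difference between these 2 medians.

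Among members chosen in both lists, which had to reach the same level in both tissues, 96 of 99 with counts were tested and 9 were called, 6 higher in shoot and 3 higher in root. For comparison 56.8% of all positions tested were called, and the requirement of 5 TPM in both tissues itself limits large differences. The largest was the sequence 5 base 19145575, at a log2 difference of 4.59 ± 0.46 (SE; adjusted p = 3.7e-06 by edgeR). Leaving out shoot replicate 1 gave 5.11, and leaving out shoot replicate 2 gave 3.92. Base 41783572 of sequence 8, minus strand, held 70 and 48 tags in shoot and 20 and 24 in root, at 2.05 ± 0.35 (adjusted p = 0.000197 by edgeR).

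Higher in root was base 44232908 of sequence 7, at a log2 difference of -1.47 ± 0.31 (adjusted p = 0.000981 by edgeR). Base 621148 of sequence 4, plus strand, held 19 and 8 tags in shoot and 110 and 35 in root, at -1.76 ± 0.51 (adjusted p = 0.0088 by edgeR). That call rested on root replicate 1: without it the log2 difference was -0.90 with an adjusted p of 0.121 by edgeR. Base 40277741 of sequence 13 was at -0.83 ± 0.38 and was not called (adjusted p = 0.0799 by edgeR). It passed without shoot replicate 2 (adjusted p = 0.0198 by edgeR), without root replicate 2 (0.00133), with total-tag scaling (0.0137) and with a replicate block (0.0393). Base 38239854 of sequence 7 was at 0.48 ± 0.32 and was not called (adjusted p = 0.214 by edgeR).

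Among called members whose libraries did not overlap, the 5 with the largest fitted difference in each direction were all at 0 tags in the other tissue. Each of these passed the count filter through 1 tissue, by whose level the rule also chose it, so its call was fixed in advance. The fold values are a description. The first higher in shoot, base 39692608 of sequence 5 on the minus strand, held 68 and 62 tags in the shoot libraries and 0 in both root libraries. At 41.6 TPM it was at least 48.4-fold higher in shoot, against the floor of 3 tags over the 2 root libraries. Base 3569862 of sequence 1, minus strand, with 34 and 30 shoot tags, was at least 23.9-fold higher by the same floor. Base 47966461 of sequence 1, minus strand, with 29 and 34 shoot tags, was at least 23.6-fold higher. The last were base 39756843 of sequence 12 (at least 22.5-fold higher) and base 9579290 of sequence 7 (at least 15.8-fold higher), both on the minus strand.

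Higher in root, base 37521119 of sequence 10 on the minus strand held 0 tags in both shoot libraries and 19 and 30 in the root libraries. At 14.1 TPM it was at least 14.3-fold higher in root, against a floor of 3 tags over the 2 shoot libraries. The fold values in both directions are ratios of pooled TPM and take the tags of the higher tissue as exact. They do not use the scaling by the trimmed mean of M values, which moved fitted differences towards shoot. Base 48327991 of sequence 9, minus strand, held 20 and 23 root tags and was at least 12.6-fold higher. On the plus strand, base 5285869 of sequence 5 was at least 10.8-fold higher, base 51506933 of sequence 10 at least 9.07-fold and base 15103438 of sequence 11 at least 8.78-fold. Over all members, those without a root tag reached 41.6 TPM in shoot and those without a shoot tag 18.7 TPM in root.

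Every member with counts was seen in both libraries of the tissue that chose it. The pooled lists cannot show this, because a score of 5 TPM could have come from a single library. All 271 members of the shoot list and all 322 of the root list in the count table had tags in both libraries, and 267 and 318 had at least 3 tags in each. Among other positions in the same range of pooled tags, 9 of 10463 in shoot and 9 of 10875 in root were at 0 in 1 library.

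The spread between the 2 libraries was set beside that at the same other positions. Scaled to library totals with a pseudocount of 0.5 tags, the median absolute log2 ratio of replicate 1 to replicate 2 was 0.50 at members in shoot and 0.60 at members in root. At the other positions it was 0.39 in shoot and 0.44 in root. The libraries differed by more than 2-fold at 20.3% of the members in shoot and 21.7% of those in root, against 11.6% and 16.5% of the other positions. The other positions had more tags, with a median of 33 in shoot and 36 in root against 22 and 25 at members. Restricted to 30 pooled tags or fewer, a limit chosen after the values were seen, the medians came closer, at 0.51 for members and 0.49 for other positions in shoot and at 0.62 and 0.51 in root. The share beyond 2-fold was then 23.6% for members and 18.1% for other positions in shoot, and 23.1% and 21.6% in root. Over all members the median signed ratio was 0.01 in shoot and -0.12 in root.

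**Figure D3:**
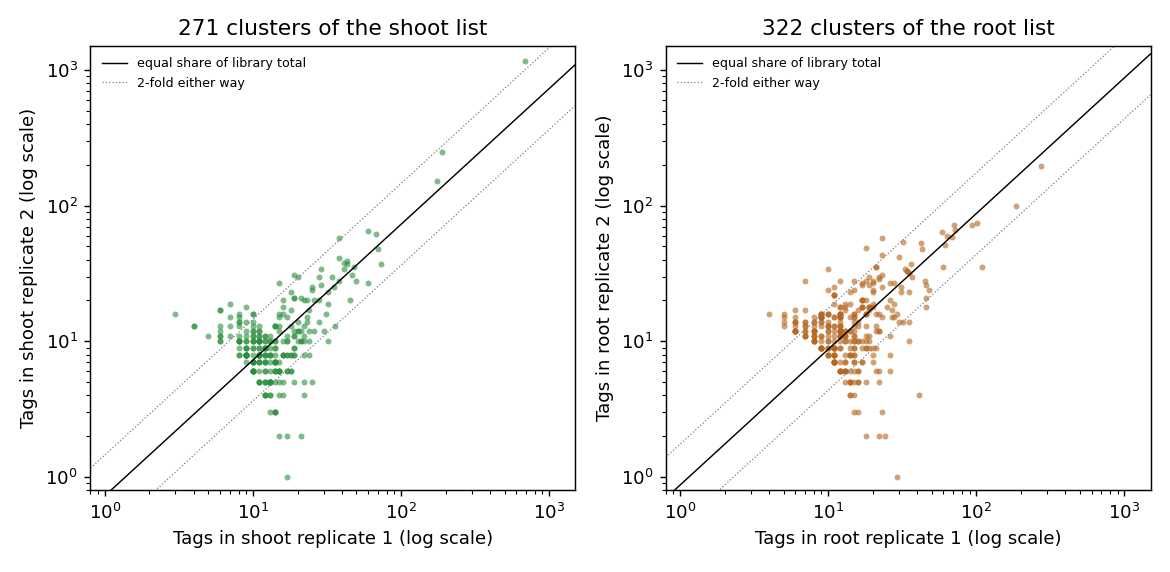
Tags in replicate 1 (x axis) against replicate 2 (y axis), on log scales, for the members of the shoot list (left) and of the root list (right) that the count table covers. Solid lines mark equal shares of the library totals and dotted lines a 2-fold departure, beyond which 55 shoot members and 70 root members lie.

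Single members could rest largely on 1 library. Among members with 20 tags or more in the tissue, the most unequal in root was base 37431598 of sequence 3, plus strand, with 29 and 1 tags in the root libraries. Base 7209440 of sequence 10, plus strand, had 24 and 2, and base 15549584 of sequence 7, plus strand, had 41 and 4 root tags beside 18 and 23 in shoot. At this last base the log2 difference of shoot over root was 0.58 with all libraries (adjusted p = 0.487 by edgeR) and 2.83 without root replicate 1 (0.000209). In shoot the most unequal, with the same limit of 20 tags, was base 41498829 of sequence 7, minus strand, with 21 and 2 tags, followed by 6 and 17 tags at base 43165142 of sequence 2, minus strand. Of the 5 most unequal such bases per tissue, all 5 in shoot and 4 in root had at most 30 tags in that tissue.

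Single base in the lists did not mean that no other base nearby was used. Weak starts below 1 TPM in both tissues are left out of the lists, and 689 of the 734 members had at least 1 other position with tags within 25 bp on the same strand. The median member had 3 other positions with tags within 25 bp and held 86.9% of all tags in that window, with both tissues summed (quartiles 80.0 and 93.2). Counted in the tissue that chose them, the medians were 88.5% in shoot and 88.1% in root, with lowest values of 46.2% and 57.1%. In other clusters of 5 TPM or more, the main base held a median of 52.2% of the tags in the same window in both tissues, a difference that the rule itself largely fixes.

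Members whose single-base cluster reached 100 TPM were nearly free of neighbouring tags in that tissue. Members in a wider cluster of the tissue where they were strong are not included. The base on sequence 5 at 19145575 held 99.8% of the 25 bp window in shoot and 100% of it in root. The sequence 8 base 18828116 held 99.1% in shoot, the sequence 19 base 37187326 held 99.0% and the sequence 13 base 763909 held 99.4%. In root, base 44232908 of sequence 7 held 99.4%. As a kept neighbour would have ended membership, each single nearby position is bound to be weak, and the share at a strong base must then be high.

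Nearby tags were not spread evenly. Summed over the shoot members, the base itself held 14270 of 15800 tags in the window, the next base upstream 240 and the next base downstream 45. Over the root members the base held 16585 of 18784, the next base upstream 358 and the next base downstream 81. The upstream neighbour thus had 5.33 times the tags of the downstream neighbour in shoot and 4.42 times in root. The main bases of other clusters of 5 TPM or more had the same order, with 4.09 times in shoot and 4.06 times in root. From 2 to 5 bp away the downstream side led, with 361 against 254 tags in shoot and 491 against 401 in root.

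**Figure D4:**
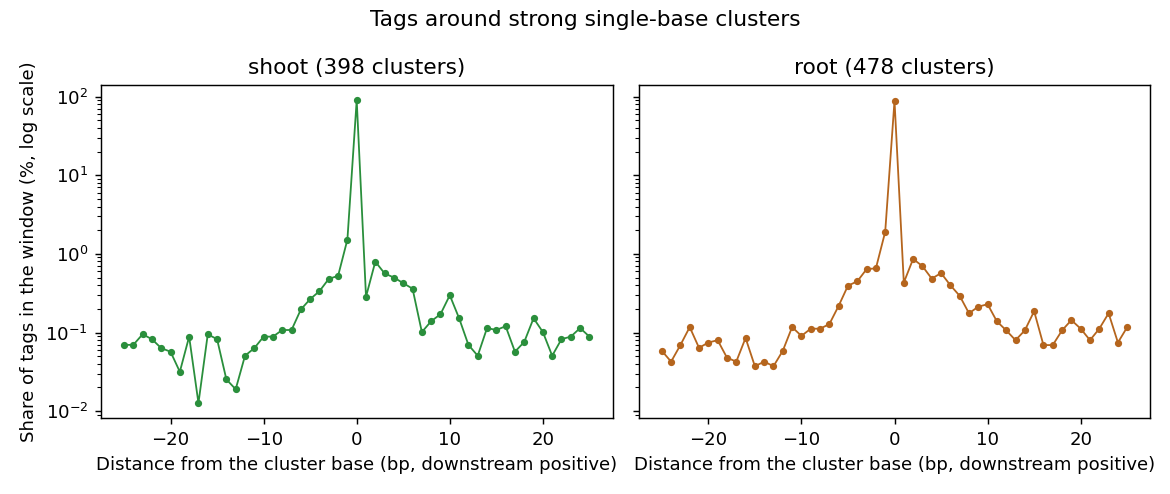
Share of all tags in the window (y axis, percent, log scale) by distance from the member's base (x axis, bp, downstream positive), for 398 shoot members in shoot and 478 root members in root. The base itself holds 90.3% in shoot and 88.3% in root, and the next base downstream lies below the next base upstream in both.

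Where the tissue whose list did not choose a member had enough tags nearby, it mostly had them at the same base. For members chosen in shoot alone, 150 of 256 had at least 5 root tags within 25 bp, and in 147 of them (98.0%) the member's base had more root tags than any other base in the window. The median share of root tags at that base was 82.0% (quartiles 69.4 and 92.9). For members chosen in root alone, 191 of 336 had at least 5 shoot tags in the window, and the base led in 187 (97.9%), with a median share of 83.3% (quartiles 66.7 and 93.6). In 1 case the base had no shoot tag although other bases in the window did. The rule limits these shares, because it did not leave the other tissue out. A nearby base of 1 TPM or more in either tissue ended membership if it had a tag in the choosing tissue. No such share was taken for other strong clusters, so these values are a description.

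On the same strand, members lay about as far from their neighbours as other strong regions did. Positions within 150 bp are joined by the construction of the lists, and the nearest region on the same strand lay 152 bp away at the closest member. The median distance was 12605 bp for members and 12827 bp for the 10886 other regions of 5 TPM or more. Within 1000 bp, 103 members (14.0%) had another region on the same strand, and 15.2% of the other regions did. Distances of members were taken from their base and those of other regions from their edges.

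Within these 103 members the nearest region lay upstream in 43 and downstream in 60. Its median level was 5.44 TPM when upstream and 2.73 TPM when downstream, and it was stronger than the member in 18 and 13 cases. The strongest member was one of them. The region at 19145332 to 19145353 on sequence 5, minus strand, lay 222 bp downstream of base 19145575, with 318 TPM in shoot and 5.73 TPM in root, so that both were higher in shoot. On the opposite strand no region lay nearer than 432420 bp. Base 37187326 of sequence 19 had a region of 31.3 TPM in shoot 1137 bp downstream that was not in the root list.

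On the opposite strand, the share with a close neighbour was higher among members. A region within 1000 bp was found for 44 members (5.99%) and for 405 of the other regions (3.72%). Within 150 bp the numbers were 16 (2.18%) and 122 (1.12%), and with only regions of 5 TPM or more counted they were 22 (3.0%) and 143 (1.31%) within 1000 bp. The medians were 18295 bp and 19997 bp. Of the members, 28 (3.81%) had a neighbour within 1000 bp downstream, facing them, and 15 (2.04%) upstream, pointing away. Another 5 (0.681%) are those that lay inside one, with some members counted in several of these. Among the other regions 216 (1.98%) had a facing neighbour, 162 (1.49%) one pointing away and 43 (0.395%) an overlapping one. These are counts over regions that share their libraries, given side by side without a test.

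**Figure D5:**
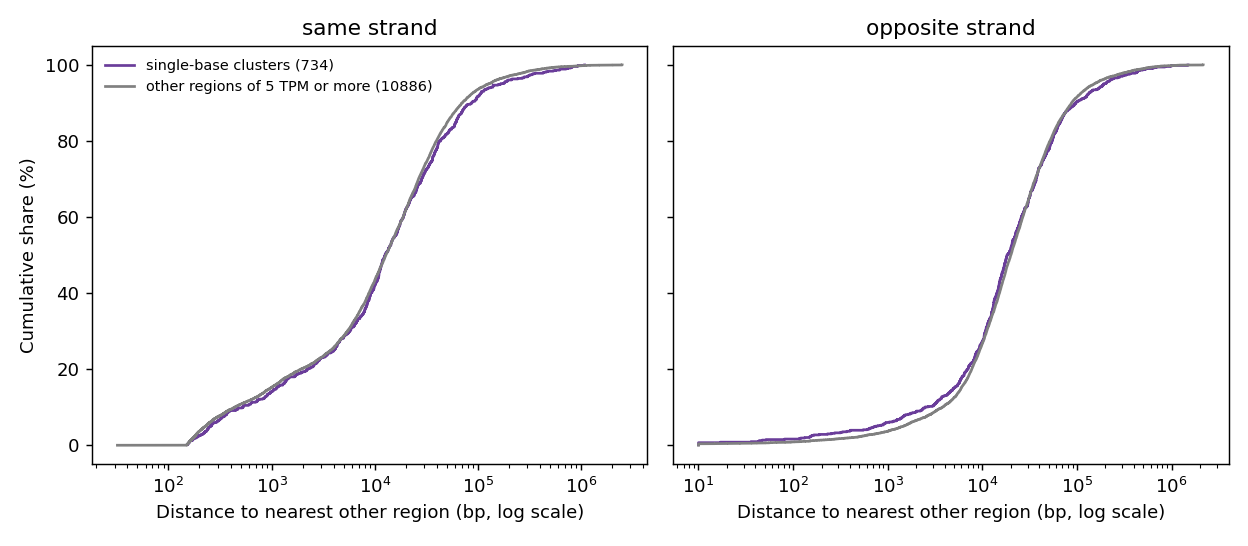
Cumulative share (y axis, percent) of the 734 members and of 10886 other regions of 5 TPM or more by distance to the nearest other region (x axis, bp, log scale), on the same strand (left) and on the opposite strand (right). The curves run close together, and on the opposite strand below 5000 bp the members lie above the others, with 15.0% against 12.5% at that distance.

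Members inside an opposite-strand region were 5. Base 47966461 of sequence 1, minus strand, lay within the plus-strand region 47966432 to 47966806, whose level was 4400 TPM in shoot and 5.73 TPM in root. The member itself had 29 and 34 tags in shoot and 0 in both root libraries, so both strands were higher in shoot. Base 54609943 of sequence 1, plus strand, with 10 and 6 shoot tags and 0 root tags, lay within a minus-strand region of 623 TPM in shoot and 1.72 TPM in root. Base 48311005 of sequence 19, minus strand, had 1.63 TPM in shoot and 5.45 TPM in root within a plus-strand region of 75.6 and 168 TPM. The other 2 lay on sequence 5, minus strand, at 37959890 and on sequence 6, minus strand, at 3488330. At the 3 bases on sequences 1 and 5 no tag was found on the opposite strand at the same base. At 3 of all 734 members any such tag was found.

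Some members stood far from any other start. For 300 members (40.9%) no region lay within 10000 bp on either strand, and 42.5% of the other regions were as isolated. Within 100000 bp none was found for 27 members (3.68%) and for 2.77% of the other regions. The farthest was base 22430694 of sequence 11, minus strand, with 24 and 8 tags in shoot and 0 in both root libraries, whose nearest region lay 1007404 bp away on the opposite strand. The next, base 14536724 of sequence 1, plus strand, held 12 and 8 tags in shoot and 55 and 67 in root, and its nearest region lay 924630 bp away. Its root cluster was wider, and its root level of 35.1 TPM was above its shoot level of 6.47 TPM. Base 13485852 of sequence 5, plus strand, held 10 and 5 shoot tags and 7 and 12 root tags with nothing nearer than 539721 bp.

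Members occurred on all 20 sequences, at 25 to 57 per sequence. They made up 4.78% of the regions of 5 TPM or more on sequence 6 and 7.46% on sequence 3, the lowest and the highest share. In the middle of the sequences, from 25% to 75% of the stretch with tags, lay 156 members (21.3%) and 19.0% of the other regions. The plus strand held 358 members. In 3 cases a pair of neighbouring members lay within 1000 bp, each pair on a single strand. The bases 49027995 and 49028311 of sequence 9, minus strand, were 316 bp apart. The others were 303 bp apart on sequence 13, plus strand, at 20422992 and 20423295, and 171 bp apart on sequence 14, minus strand, at 8967938 and 8968109.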

How the data were processed

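Raw counts of tags were deposited for each library by position and strand, per the file headers. They were used for 479104 positions, and 1 broken last line was left out. The deposited table of TPM gives a pooled value per tissue for 711688 positions, per the file headers. The deposited cluster lists give each cluster's TPM sum and its count of start positions per tissue, per the file headers. The aligner, cluster software and handling of multiply mapped reads are not given in the labels or headers. Tags of near-identical gene copies, of which soybean has many, may have been split or joined. Every cluster of both lists was rebuilt exactly from the TPM table. Positions that reached 1 TPM in shoot or root and had a tag in the listed tissue were joined over gaps of up to 150 bp. This joining also made groups that the lists lack. The base had at most 0.859 TPM in root at 41 such shoot members and at most 0.981 TPM in shoot at 92 such root members. The number of such groups in all was not taken. TPM values followed a power function of pooled tags (exponent 0.994 in shoot, 1.00 in root) and 100% gave whole tags within 0.001.

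Calls came from edgeR 4.0.16 (quasi-likelihood test, trimmed mean of M values, filterByExpr, tissue as the only term, Benjamini-Hochberg over all positions tested), in R 4.3.3, tested on simulated data. Alternatives were RLE and total-tag scaling, DESeq2 1.42.0, no filter, a replicate block, merged regions and leaving out each library. Members named are the 10 highest per tissue, the 5 largest called differences per direction without overlap, the 5 strongest shared, the 5 most unequal between libraries per tissue (20 tags or more) and the 5 nearest to and farthest from other clusters. Some are given by range only. The other bases and regions named were chosen after their values were seen. Members and rules were chosen with earlier results of these data known. The sequence around the starts, genes and motifs are not analysed here.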

Additional observations from a re-analysis of the deposited data

How the results depend on the processing

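The number of members depended on the rule: 1839 with a score of 3 or more, 189 with 10 or more and 449 when the base had to be a single-base cluster in both lists, against 734. Without members inside a wider cluster of the other list, 696 were left. The number with an opposite-strand region within 1000 bp was 44, against 29 within 500 bp and 22 when only regions of 5 TPM or more counted, and 65 within 2000 bp. The median share of tags at the base was 89.8% with 10 bp and 81.6% with 100 bp on each side, against 86.9%. With at least 3 tags needed per library, 486 of 494 members stayed.

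The number of members called was 139 of 271 tested, beside 56.8% of all positions tested. On the same 271 members it was 141 with RLE scaling (57.3% of all positions), 147 with total-tag scaling (61.0%), 96 with DESeq2 (42.6%) and 135 with a replicate block (56.4%). With merged regions it was 136 of 273 (52.9% of all regions). Without the count filter it was 159 of 494 beside 1.59% of all positions, an unlike share, as the rule set members a minimum level. With a library left out it was 110 to 172 of 384 to 416 members tested, beside 35.4% to 49.2% of all positions. There the filter passes more members and the lone library of a tissue is taken to vary like the others, so these numbers are not directly comparable with 139. The replicate numbers shared no deviation between the tissues (correlation -0.01 over 11966 positions), so the block rests on the number alone.

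Of 307 refitted log2 differences of 31 named members, 288 kept their direction and their side of the threshold, 4 no longer passed and 8 passed anew. Another 7, at 4 members not called with all libraries, changed sign without passing the threshold. Base 9609229 of sequence 2, minus strand, was at 0.19 with all libraries, -0.24 with total-tag scaling and -0.066 without the filter, and between -0.90 with shoot replicate 2 left out and 0.96 with shoot replicate 1 left out. Base 43165142 of sequence 2 was at -0.31, and between -1.45 with shoot replicate 2 left out and 0.48 with shoot replicate 1 left out. It was also above 0, at 0.11, without root replicate 2. Base 15549584 of sequence 7 was at 0.58, and between -0.33 without root replicate 2 and 2.83 without root replicate 1. Base 41621519 of sequence 5, plus strand, was at -0.20, at -0.62 with total-tag scaling and at -0.42 without the filter. With a library left out it lay between -0.37 (shoot replicate 1) and 0.027 (shoot replicate 2). The cause was not tested. Depth kept 223 of the 494 members with counts from being tested, and the other 240 lie outside the count table.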
